A study of Mus musculus with 48 samples.

Results

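The tissue-by-genotype interaction was examined in female mice from which both liver and gastrocnemius muscle had been sequenced. The members are 20 of the 48 RNA-Seq libraries of the series and come from 10 animals, each with 1 library per tissue. They were chosen by the animal number that liver and muscle libraries share, with female sex and the same genotype on both labels. There were 5 WT and 5 IGF-1R Het animals, called A to E and F, G, H, J and K below in the order of their library numbers, and values are listed in that order. All 10 were C57BL/6J females, 4 months old. The heterozygotes carried the IGF-1R R1096C allele on one Igf1r copy, in every tissue and from the germline, and the WT animals carried none. The knock-in was made with CRISPR-Cas9 and founders were backcrossed to C57BL/6J. No treatment is given for the animals, which were housed with food freely available. For the mice of its protein blots, the study's supplement says that killing was done in small groups on successive days, always at one time of day. For the RNA libraries neither this nor the feeding state is stated in the sources used here. For each gene, the liver level minus the muscle level of the same animal (log2 CPM, read counts scaled to a common library size) was compared between genotypes, and the fitted Het minus WT difference in it is called the interaction below. A positive interaction means that the gene was higher in liver relative to muscle in the heterozygotes than in WT.

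IGF-1R is the receptor tyrosine kinase for the growth factor IGF-1, and the liver makes most of the IGF-1 in blood under control of growth hormone. Adult hepatocytes carry little IGF-1R and much insulin receptor, whereas skeletal muscle carries both. Ligand binding recruits the IRS adaptors, which feed phosphoinositide 3-kinase, Akt, the FoxO factors and mTORC1, and the Ras and ERK cascade. The altered residue lies in the kinase insert domain, a loop between the lobes of the kinase. The coding sequence around the altered codon is shown because it is the only designed difference between the groups. In GRCm39 the WT codon occupies chr7:67857607-67857609 on the plus strand, in exon 17 of the 21 exons of the Igf1r transcript, and encodes the arginine that R1096C replaces, in a protein of 1369 residues. The 45 coding bases on each side are in lower case, the codon is in capitals, and the stretch is spliced across 1 exon boundary.
Igf1r coding strand: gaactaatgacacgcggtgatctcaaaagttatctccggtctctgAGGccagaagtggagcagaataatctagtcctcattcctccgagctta

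Before any gene is considered, the Het livers stood apart as libraries. Liver reads from mitochondrially encoded genes made up 4.94%, 4.09%, 4.70%, 4.56% and 2.41% of the library in WT (A to E). In the Het livers the share was 7.31%, 12.5%, 16.6%, 14.3% and 14.8% (F, G, H, J and K). The groups did not overlap, Het animal F was nearest to WT, and WT animal E was the lowest of all. In the muscles of the same animals the share was 10.005% to 11.7%, with the genotypes overlapping. At least 1 read was counted for 18010 to 21189 genes in WT livers and for 15372 to 16538 genes in Het livers, again without overlap, while muscle libraries detected 18883 to 21939 genes. Library totals were 26290519 to 56312866 reads and overlapped between genotypes in each tissue. Summed hepatocyte markers (Alb, Apoa1, Ttr, Apoc3, Fga, Fgb, Serpina1c, Cyp2e1 and Tat) took 10.1% to 12.1% of reads in WT livers and 5.11% to 9.37% in Het livers, and at most 0.0227% in muscle. Muscle fibre markers took 12.5% to 16.4% of muscle reads and at most 0.000434% of liver reads, so the tissue labels held in all 20 libraries. The level of Xist, a noncoding RNA made from the silenced X, ranged from 604 to 771 CPM in WT livers and from 781 to 1903 CPM in Het livers, without overlap, and from 132 to 228 CPM in the muscles. Reads on Y-linked genes summed to 14.1 to 111 CPM in WT livers and to 171 to 329 CPM in Het livers. Most of these liver reads were assigned to 1 gene, Erdr1y, and without it the Y-linked genes summed to at most 4.73 CPM in any of the 20 libraries. The part of these library differences in the results below was not tested. The mitochondrial share of the liver and the genotype cannot be told apart in these animals.

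**Figure D1:**
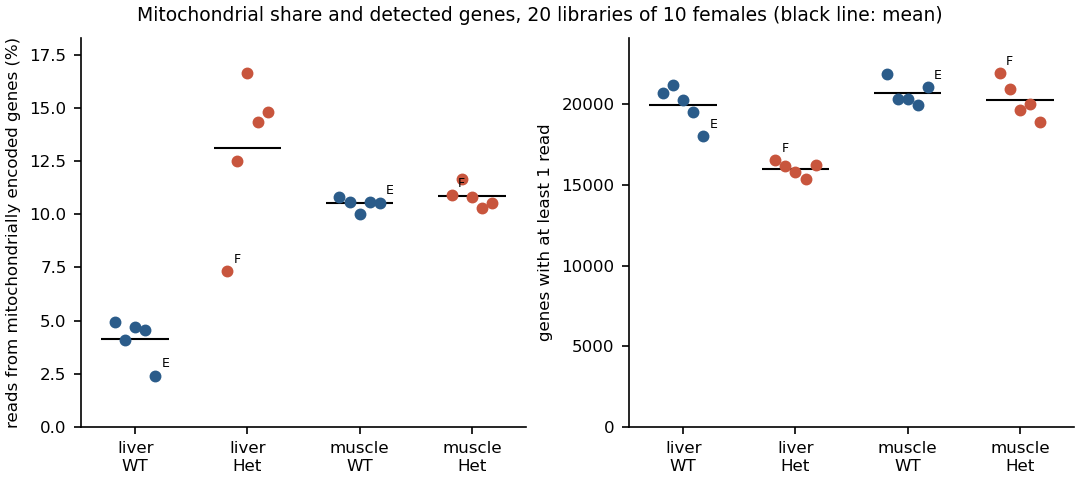
Each point is 1 library, WT in blue and Het in red, and the black line is the mean of 5; the left axis is the percent of reads from mitochondrially encoded genes and the right axis the number of genes with at least 1 read, with WT animal E and Het animal F marked. The Het livers lie at 7.31% to 16.6% and at 15372 to 16538 genes, apart from the WT livers, while the muscle groups overlap.

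Gene expression differed between genotypes unequally in the 2 tissues of the same females. Genes were tested if both tissues had 20% or more of their libraries with 10 reads or more. Of 16292 such genes, 3295 (20.2%) had an interaction at an adjusted p under 0.05, and 5460 at an unadjusted p under 0.05. There were 927 genes (5.69%) higher in liver relative to muscle in the heterozygotes and 2368 genes (14.5%) lower. This split depends on how libraries are scaled against each other. With TMM scaling over the 20 libraries, the scaling of the values printed here, the median interaction over all genes was -0.37. It was -0.21 with TMM inside each tissue (1183 higher and 1696 lower), -0.23 with DESeq2 size factors (1145 and 1756) and -0.05 with library sizes alone (1421 and 1204). With the Het livers rescaled until the median was near 0, a setting chosen after seeing the data, 1673 genes were higher and 961 lower. A total of 1883 genes were called in the same direction under all 5 scalings, 927 higher (5.69%) and 956 lower (5.87%). The scaling used here had the lowest median of the 5 and the others shift genes upward, so a higher call under all 5 follows from that shift and is no sign of stability, whereas 956 of the 2368 lower calls held against it. Without WT animal B the count fell to 898 higher and 1156 lower, and without Het animal F it was 1446 higher and 2148 lower. With the log2 mitochondrial share of each library added to the model 0 genes were called, against 2441 at an unadjusted p under 0.05, and the median interaction was -0.43. Medians of gene groups are therefore also given relative to the median of all genes.

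The larger of the changes was in liver for nearly every called gene. Of the 3295 genes, 3274 (99.4%) changed more in liver than in muscle when each tissue was fitted alone, and 2981 (90.5%) were also called in liver, where 4854 genes (29.8%) were called. With the log2 mitochondrial share as a covariate 303 genes were called in liver. In muscle 0 genes (0%) were called with edgeR, and 345 genes (2.12%) had an unadjusted p under 0.05. DESeq2 called 2 genes in muscle, Fos and F10, the latter detected in WT muscles only and at a mean of 0.518 CPM. The genes called higher had a median liver change of 1.37 and a median muscle change of -0.02 (log2 fold change, Het minus WT). The genes called lower had medians of -0.93 in liver and 0.03 in muscle, and 90% of them lay between -0.14 and 0.34 in muscle. The median standard error of a muscle change was 0.12 for these genes. The liver fit shares its libraries with the interaction and is no independent evidence for it.

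**Figure D2:**
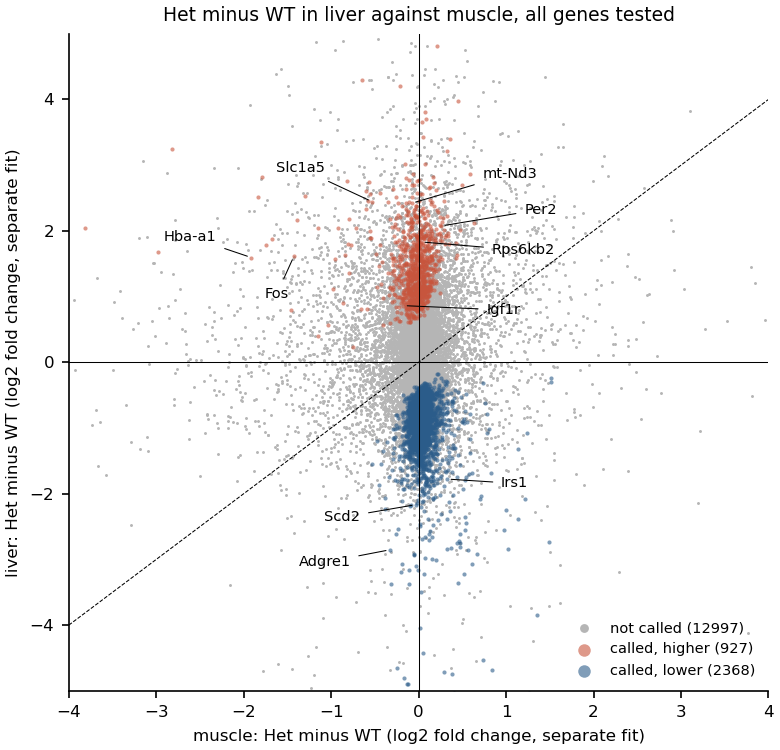
Each point is a gene, with the log2 fold change of Het over WT in muscle on the horizontal axis and in liver on the vertical axis, red where the interaction was called higher, blue where called lower and grey where not called; the dashed line marks equal change. Called genes spread up and down along the liver axis and stay near 0 in muscle, and 409 genes with larger values lie outside the axes.

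At the level of single animals, the liver minus muscle difference of the 5 heterozygotes did not overlap that of the 5 WT animals for 2569 genes (15.8%), 763 higher and 1806 lower. Of the 3295 called genes, 2251 (68.3%) showed no such overlap. For a gene without overlap, the exact two-sided permutation test of 5 against 5 animals gives p = 0.00794, the smallest it can give. The tissue order itself was reversed for 215 genes, of which 205 were called. For 72 of them muscle was the higher tissue in all 5 WT animals and liver in all 5 heterozygotes, and for 143 the reverse held. Among the 927 genes called higher, 467 (50.4%) were liver-higher in WT, against 51.4% of all genes tested. Among the 2368 genes called lower, 1373 (58%) were liver-higher in WT.

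Among the IGF and insulin signalling genes, receptors and signalling intermediates changed while the ligand did not pass the test. Of 64 members tested, 2 were called higher and 23 lower, against 5.69% higher and 14.5% lower of all genes. Of the lower calls 8 were made under all 5 scalings. The split depended on the scaling. With library sizes alone 6 members were called higher and 11 lower, and with the Het livers rescaled 8 and 8. With GC content and length corrected 6 were called higher and 13 lower. The list's median was -0.46, that is -0.09 relative to all genes tested. Igf1, the ligand, had liver levels of 658, 681, 768, 626 and 555 CPM in WT and 894, 771, 652, 810 and 541 CPM in Het animals. In muscle it was at 9.94 to 28.7 CPM in WT and 17.7 to 24.7 CPM in Het animals. The genotypes overlapped in both tissues, and the interaction was -0.08 (SE 0.28, adjusted p = 0.881). Of the circulating partners of IGF-1, the acid-labile subunit Igfals had an interaction of -0.65 (SE 0.35, adjusted p = 0.213). In liver alone Igfals was called lower (-0.56, adjusted p = 0.0223), at 129 to 149 CPM in WT and 53.0 to 104 CPM in Het livers. Its muscle level was low, at 3.64 to 8.79 CPM in WT and 3.60 to 6.15 CPM in Het animals. Igfbp4, a binding protein, had an interaction of -0.34 (SE 0.27, adjusted p = 0.427). Igfbp5 fell by 1.59 (SE 0.45, adjusted p = 0.0245), a call that held under 3 of the 5 scalings and in 6 of the 10 fits that left out 1 animal.

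Igf1r itself (chr7:67601518-67883416, plus strand) rose in liver relative to muscle. Its liver level was 4.26, 4.74, 4.23, 6.05 and 4.40 CPM in WT and 7.41, 5.28, 12.0, 7.18 and 6.50 CPM in Het animals. Its muscle level was 26.8, 38.1, 20.4, 31.6 and 28.5 CPM in WT and 25.8, 24.5, 27.3, 30.8 and 19.7 CPM in Het animals. Liver values overlapped only between Het animal G and WT animal D, and muscle values overlapped throughout. The within-animal differences were -2.99 to -2.25 in WT and -2.20 to -1.19 in Het animals, so muscle stayed the higher tissue in all 10 and the gap narrowed. The interaction was 0.82 (SE 0.25, adjusted p = 0.0365), with 0.82 to 1.19 over the 5 scalings. For a higher call the scalings are no sign of stability, as said above. Igf1r was called in 4 of the 10 fits that left out 1 animal. The counts do not tell the knock-in transcript from the WT one.

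The other receptors went the other way. Insr, the insulin receptor, was at 206, 229, 245, 258 and 162 CPM in WT livers and at 132, 127, 118, 86.8 and 121 CPM in Het livers. In muscle it was at 84.1 to 114 CPM in WT and 83.4 to 125 CPM in Het animals. No Het liver reached the WT range, while the muscles overlapped. The Insr interaction was -0.99 (SE 0.20, adjusted p = 0.00551), that is -0.62 relative to all genes, and it was called under 4 of the 5 scalings. Igf2r, which takes up IGF-2 for degradation, had an interaction of -0.89 (SE 0.22, adjusted p = 0.0123), called under 3 of the 5. The growth hormone receptor Ghr fell by 0.97 (SE 0.26, adjusted p = 0.0188, 3 of the 5 scalings), and Jak2, its kinase, fell by 1.15 (SE 0.26, adjusted p = 0.00785, 4 of the 5 scalings). With GC content and transcript length corrected, the calls of Insr (-0.45, adjusted p = 0.0928), Ghr (-0.37, adjusted p = 0.319) and Jak2 (-0.71, adjusted p = 0.0741) were lost.

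Irs1, the adaptor that couples both receptors to phosphoinositide 3-kinase, gave the strongest fall of the list. Its liver level was 16.8, 14.3, 17.7, 22.6 and 9.68 CPM in WT and 5.35, 4.65, 6.29, 2.59 and 2.11 CPM in Het animals. Its muscle level was 21.7, 19.2, 42.3, 36.4 and 28.4 CPM in WT and 22.3, 34.8, 54.2, 36.5 and 36.9 CPM in Het animals. No Het liver reached the WT range, and the muscle ranges overlapped. The interaction was -2.33 (SE 0.39, adjusted p = 0.00217), with -2.33 to -1.97 over the 5 scalings and a call in each of the 10 fits without 1 animal. Its relative Irs2 had an interaction of 0.05 (SE 0.18, adjusted p = 0.889). Downstream, Pdpk1, the kinase that activates Akt, fell by 1.76 (SE 0.31, adjusted p = 0.0028). Pik3cb, a catalytic subunit of phosphoinositide 3-kinase, fell by 1.24 (SE 0.27, adjusted p = 0.00756), and both were called under each of the 5 scalings. Akt2 fell by 0.77 (SE 0.18, adjusted p = 0.01) and Foxo3 by 0.88 (SE 0.21, adjusted p = 0.0105), each under 3 of the 5 scalings. Akt1 was at -0.42 (adjusted p = 0.168) and was not called. With GC content and length corrected both Akt genes were called, Akt1 at -0.83 (adjusted p = 0.00837) and Akt2 at -0.73 (adjusted p = 0.0219). In the Ras and ERK branch 5 of 12 genes were called lower and 0 higher, 2 of the 5 under all 5 scalings.

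Around mTORC1, on the scaling used here, the gene of S6 kinase 2 was called and that of S6 kinase 1 was not. Rps6kb2, which encodes S6 kinase 2 (chr19:4203990-4213400, minus strand), was at 19.7, 22.2, 17.1, 14.7 and 26.02 CPM in WT livers and at 43.6, 43.7, 63.0, 87.2 and 79.3 CPM in Het livers. The muscles had 21.9 to 29.3 CPM in WT and 22.8 to 30.4 CPM in Het animals. Every Het liver exceeded every WT liver and the muscles overlapped. The interaction was 1.61 (SE 0.23, adjusted p = 0.0013) and was called in each of the 10 fits without 1 animal. Rps6kb1, the S6 kinase 1 gene, had an interaction of 0.17 (SE 0.20, adjusted p = 0.589), and Mtor had -0.30 (SE 0.29, adjusted p = 0.514). With GC content and length corrected Rps6kb1 was called higher as well (0.79, adjusted p = 0.0153). Deptor, an inhibitor of mTOR, fell by 1.26 (SE 0.22, adjusted p = 0.00265), and Eif4ebp2, a translation repressor that mTORC1 phosphorylates, fell by 1.12 (SE 0.21, adjusted p = 0.00374). For the list as a whole, leaving out WT animal B left 1 higher and 11 lower calls in the IGF and insulin list, leaving out WT animal E left 1 and 20, and leaving out Het animal F left 4 and 17.

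**Figure D3:**
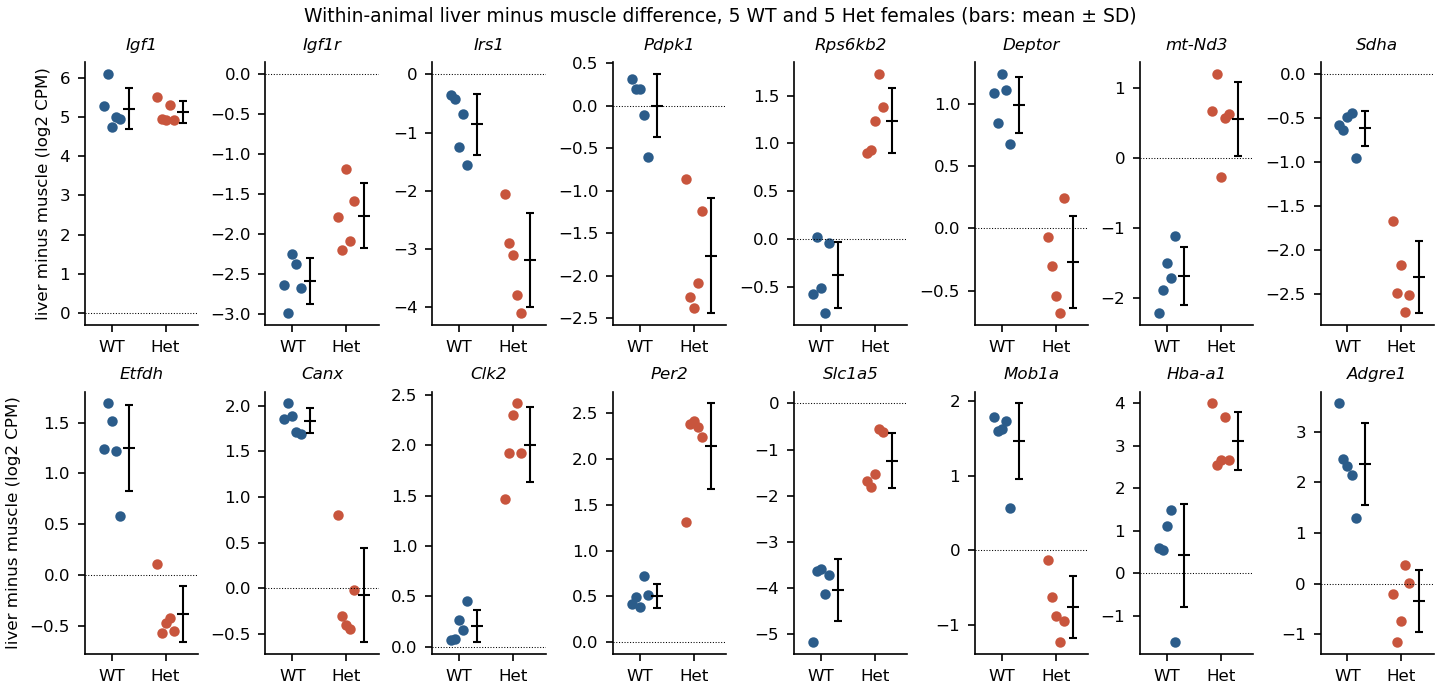
Each panel is a gene and each point the liver minus muscle difference of 1 animal in log2 CPM, WT in blue and Het in red, with the mean and SD of 5 animals beside it; the dotted line marks equal levels in both tissues. Igf1 overlaps between genotypes, Igf1r, Rps6kb2, mt-Nd3, Clk2, Per2, Slc1a5 and Hba-a1 lie higher in Het animals, and the other 8 genes lie lower.

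Most transcripts encoded by the mitochondrial genome rose in liver relative to muscle, whereas the calls among nuclear genes for the same complexes depended on the scaling. All 13 mitochondrially encoded protein genes were tested, 10 were called higher and 0 lower, and the median was 1.61, or 1.98 relative to all genes tested. The interaction ranged from 0.99 to 2.55. mt-Nd3, a complex I subunit, was at 5.86, 6.83, 8.83, 5.76 and 5.40 CPM in WT livers and at 29.8, 37.4, 17.6, 29.99 and 41.0 CPM in Het livers. In muscle it was at 11.7 to 27.4 CPM in WT and 16.2 to 26.4 CPM in Het animals, so only the livers separated. Its interaction was 2.26 (SE 0.29, adjusted p = 0.000943). mt-Atp8, whose reading frame overlaps that of mt-Atp6, had 2.55 (SE 0.65, adjusted p = 0.0147) at low levels of 0.896 ± 0.584 CPM in WT and 3.75 ± 1.15 CPM in Het livers (SD, n = 5). Of 74 nuclear-encoded respiratory chain genes, 0 were called higher and 13 lower, the latter a share near the 14.5% of all genes. Of the 13, 7 were called under all 5 scalings, and the list's median was -0.12, or 0.25 relative to all genes. With library sizes alone 8 of the nuclear genes were called higher and 8 lower, with the Het livers rescaled 7 and 7, and with GC content and length corrected 11 and 8. The largest falls were in Sdha, the catalytic subunit of complex II (-1.69, SE 0.26, adjusted p = 0.00174), and Uqcrc2 of complex III (-1.58, SE 0.29, adjusted p = 0.00305). With the mitochondrially encoded genes and their reads left out, 3269 genes were called among all genes, 916 higher and 2353 lower. The part of the mitochondrial share of the Het livers in the calls of these lists was not tested. Without WT animal B the mitochondrially encoded list had 8 higher calls and the nuclear list 8 lower ones, and without WT animal E they had 7 and 12.

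On the scaling used here, most genes of fatty acid oxidation were called lower in liver relative to muscle, while few glycolysis genes were called in either direction. Of 27 fatty acid oxidation genes, 16 were called lower and 1 higher, and 12 of the lower calls were made under all 5 scalings. With GC content and length corrected 11 were called lower and 2 higher. The median was -1.05, or -0.68 relative to all genes. In mitochondrial beta-oxidation 12 of 15 were called lower. Etfdh, which passes electrons from acyl-CoA dehydrogenases to the respiratory chain, had within-animal differences of 1.24, 1.69, 1.52, 1.22 and 0.58 in WT and 0.11, -0.57, -0.47, -0.42 and -0.55 in Het animals. Liver was the higher tissue in all 5 WT animals and muscle in 4 of the 5 heterozygotes, and the interaction was -1.63 (SE 0.24, adjusted p = 0.00159). Ppara, the nuclear receptor that drives this programme, fell by 2.05 (SE 0.56, adjusted p = 0.0213), a call under 3 of the 5 scalings and in 4 of the 10 fits without 1 animal. Etfb, whose product hands electrons to that of Etfdh, was the 1 higher call at 1.05 (SE 0.27, adjusted p = 0.0162). Of 16 genes of pyruvate dehydrogenase and the TCA cycle 6 were called lower and 0 higher, with a median of -0.29 relative to all genes, led by Pdha1, the E1 alpha subunit of pyruvate dehydrogenase (-1.95, SE 0.34, adjusted p = 0.00265). Of 16 glycolysis genes 3 were called lower and 1 higher, a lower share near the 14.5% of all genes, with a median of -0.06 relative to all genes. Without Het animal F 5 of them were called lower. Pgam1 fell by 1.92 (SE 0.25, adjusted p = 0.001), and Eno3, the muscle form of enolase, rose by 2.14 (SE 0.47, adjusted p = 0.00748) at 7.49 ± 4.57 CPM in WT livers and 28.4 ± 10.6 CPM in Het livers (SD, n = 5), far under its muscle level.

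Some lipid synthesis genes and, on the scaling used here, most genes of the unfolded protein response were called lower. Of 26 SREBP targets for cholesterol and fatty acid synthesis, 9 were called lower and 0 higher, 5 of them under all 5 scalings, with a median of -0.95, or -0.58 relative to all genes. Idi1, an isomerase of the isoprenoid branch, fell by 3.35 (SE 0.67, adjusted p = 0.00476), and Scd2, a fatty acid desaturase, fell by 2.60 (SE 0.52, adjusted p = 0.00502). For Idi1 the within-animal difference of WT animal E, 1.36, lay inside the Het range. Of 19 genes of the unfolded protein response 11 were called lower and 0 higher, 4 of them under all 5 scalings. The median was -0.81, or -0.44 relative to all genes. With GC content and length corrected 4 were called lower. Canx, a chaperone of the endoplasmic reticulum, had within-animal differences of 1.86, 2.02, 1.89, 1.72 and 1.69 in WT and 0.80, -0.30, -0.40, -0.44 and -0.01 in Het animals. The groups did not overlap and Het animal F was nearest to WT. Its interaction was -1.91 (SE 0.25, adjusted p = 0.000942), and Atf6, a stress sensor of that compartment, had -2.12 (SE 0.31, adjusted p = 0.00157). Ddit3 (CHOP), a stress-induced factor, was the only call among 21 ATF4 targets and rose by 0.98 (SE 0.31, adjusted p = 0.0414), a call made in 3 of the 10 fits without 1 animal. Without WT animal B the unfolded protein response list had 4 lower calls and the SREBP list 6, and without WT animal E they had 10 and 14.

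Proteasome, autophagy, heat shock, antioxidant and hypoxia genes had lower calls that held in part under the 5 scalings. Of 31 proteasome genes 14 were called lower and 0 higher, 4 of them under all 5 scalings, with a median of -0.25 relative to all genes. Among the 14 was Psmd1 of the regulatory particle (-1.34, SE 0.30, adjusted p = 0.00801). Psmb7 of the core particle fell by 1.56 (SE 0.39, adjusted p = 0.0134), under 4 of the 5 scalings. Of 20 autophagy and atrophy genes 8 were called lower and 1 higher, with a median of -0.27 relative to all genes. Ulk2, a kinase that starts autophagy, fell by 1.36 (SE 0.25, adjusted p = 0.00305), and Tfeb, a transcription factor for lysosomal genes, rose by 0.78 (SE 0.19, adjusted p = 0.0117). The Tfeb call was lost with GC content and length corrected (0.37, adjusted p = 0.287). Of 17 heat shock genes 7 were called lower and 2 higher, with a median of -0.34 relative to all genes. Hspd1, a mitochondrial chaperonin, fell by 1.15 (SE 0.24, adjusted p = 0.00607) and Hspb1, a small cytosolic chaperone, rose by 1.32 (SE 0.35, adjusted p = 0.0197). Of 22 antioxidant genes 7 were called lower and 1 higher, with a median of -0.04 relative to all genes. The higher one was Nfe2l2, the NRF2 factor itself, at 1.13 (SE 0.32, adjusted p = 0.0245) and called in 4 of the 10 fits without 1 animal, while Prdx1, a peroxiredoxin, fell by 1.44 (SE 0.34, adjusted p = 0.01). Of 16 hypoxia genes 9 were called lower and 1 higher, with a median of -0.54 relative to all genes. Egln3, an oxygen sensor, was at -1.54 (SE 0.33, adjusted p = 0.00673) and P4ha1, a collagen prolyl hydroxylase, at 0.92 (SE 0.23, adjusted p = 0.0126). The 78 cytosolic ribosomal protein genes had a median of -0.16, or 0.21 relative to all genes. Of them 5 were called higher and 10 lower, shares near the 5.69% and 14.5% of all genes, and 1 of the lower calls was made under all 5 scalings. Rpl28 was highest (0.88, SE 0.22, adjusted p = 0.0149) and Rpl5 lowest (-1.11, SE 0.25, adjusted p = 0.00809, 4 of the 5 scalings). Without WT animal B the lower calls were 9 in the proteasome list, 3 in the heat shock list, 4 in the antioxidant list and 5 in the hypoxia list, and the ribosomal list had 3 higher and 5 lower.

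**Figure D4:**
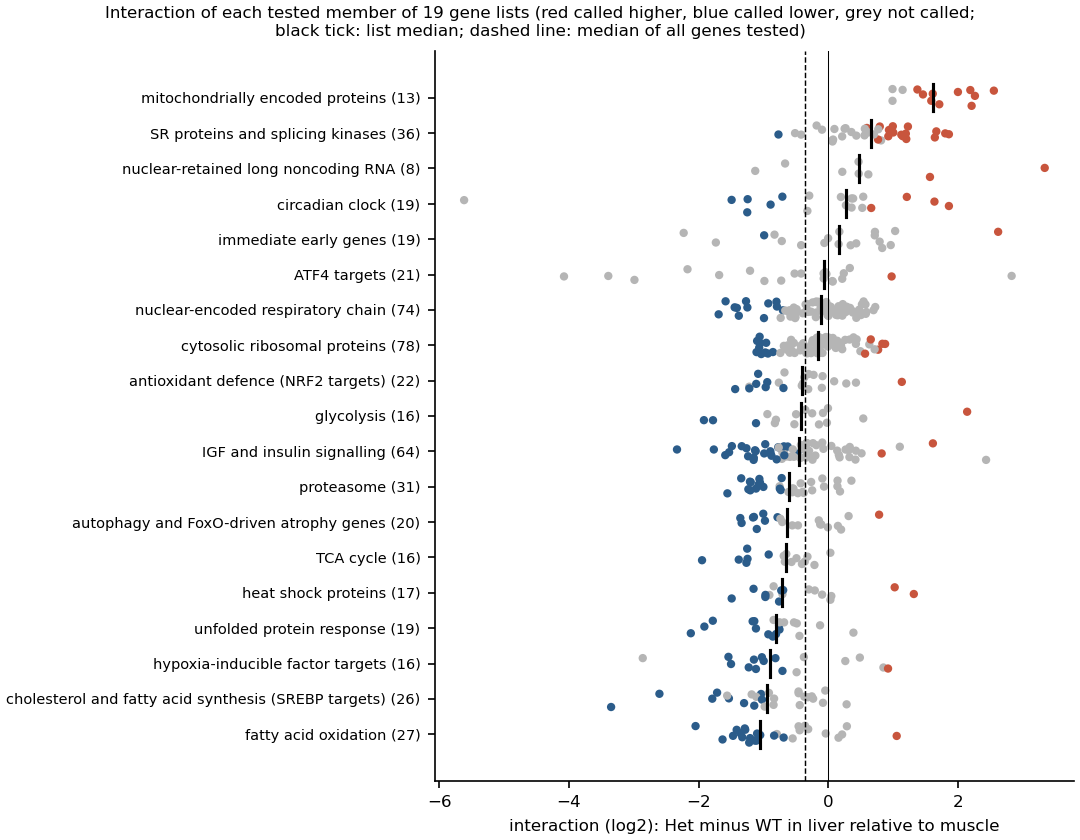
Each point is a tested member of 1 of 19 gene lists (number tested in brackets), placed by its interaction in log2, red where called higher, blue where called lower and grey where not called; the black tick is the list median and the dashed line the median of all genes, -0.37. Mitochondrially encoded genes (median 1.61) and splicing genes (0.66) lie to the right, and fatty acid oxidation (-1.05) and SREBP targets (-0.95) to the left.

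Most splicing kinases and cyclins rose in liver relative to muscle. Of 36 SR proteins, SR-related proteins and their kinases and cyclins, 16 were called higher and 1 lower. The 1 lower call was not made under all 5 scalings, which are no test of the higher calls, as said above. The median was 0.66, or 1.03 relative to all genes. Of the kinases and cyclins 8 of 11 were called higher, with a median of 1.13, or 1.49 relative to all genes. Of the SR proteins 4 of 10 were called higher, with a median of 0.31, or 0.68 relative to all genes. Clk2, a kinase that phosphorylates SR proteins (chr3:89072098-89084228, plus strand), had within-animal differences of 0.07, 0.08, 0.27, 0.17 and 0.46 in WT and 1.47, 1.92, 2.31, 2.42 and 1.92 in Het animals. All 5 heterozygotes lay above all 5 WT animals, and the interaction was 1.80 (SE 0.20, adjusted p = 0.000941). Ccnl2, a cyclin of nuclear speckles, was at 230 ± 57.1 CPM in WT livers and 824 ± 140 CPM in Het livers, and at 96.2 ± 8.21 and 96.7 ± 19.3 CPM in the muscles (SD, n = 5), with an interaction of 1.86 (SE 0.25, adjusted p = 0.001). Of 8 nuclear-retained noncoding RNAs 2 were called higher and 0 lower. Neat1, the scaffold of paraspeckles, rose by 1.57 (SE 0.38, adjusted p = 0.0123), and Meg3, an imprinted noncoding RNA, rose by 3.34 (SE 1.00, adjusted p = 0.0322) with overlap between the genotypes and a call in 5 of the 10 fits without 1 animal. Without WT animal B 1 of these RNAs was called, and without Het animal F the splicing list had 24 higher calls.

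The circadian clock list split by gene. Of 19 members 4 were called higher and 5 lower, and 3 of the lower calls were made under all 5 scalings. Clock genes oscillate over the day, and collection times of single animals are not given in the sources used here. Per2, a repressor of the clock (chr1:91343700-91387069, minus strand), was at 34.9, 37.9, 24.9, 49.5 and 43.7 CPM in WT livers and at 80.5, 167, 140, 160 and 169 CPM in Het livers. Its muscle level was 19.1 to 30.6 CPM in WT and 26.2 to 35.9 CPM in Het animals. Every Het liver exceeded every WT liver, with animal F nearest to WT, and the muscles overlapped. The interaction was 1.64 (SE 0.22, adjusted p = 0.00116). Ciart, another repressor, rose by 1.86 (SE 0.54, adjusted p = 0.0292), with within-animal differences of -1.64 to 0.69 in WT and 0.64 to 2.94 in Het animals that overlapped, and was called in 6 of the 10 fits without 1 animal. Without WT animal E the list had 2 higher and 4 lower calls. Rora, an activator, fell by 1.49 (SE 0.23, adjusted p = 0.00172), and Hlf, an output factor, fell by 1.25 (SE 0.22, adjusted p = 0.00268). Clock factors bind the E-box CACGTG, a palindrome that reads the same on both strands. It occurred in the 250 bases upstream of 5 of the 15 tested clock genes with a RefSeq promoter and of 9.52% of all 11111 tested genes with one. The Ciart window is shown because Ciart was the most raised clock gene. It lies at chr3:95882312-95882371 on the minus strand of GRCm38.p6, the build of the RefSeq promoters, and its E-box in capitals starts 116 bases before the gene start.
Ciart upstream window: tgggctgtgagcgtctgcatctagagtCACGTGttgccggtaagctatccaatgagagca

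Among genes well expressed in both tissues, those of largest interaction in either direction were named by a rule of size. The rule required a call, no overlap of the within-animal differences and a mean of at least 2 log2 CPM in each tissue, so the absence of overlap in them is not a result. On the higher side were Slc1a5, Hba-a2, Fam193b, Hba-a1, Grik5, Klhdc8b, Col5a3 and Lgals4, at 2.59 to 2.80. Slc1a5, a glutamine transporter of the plasma membrane (chr7:16515265-16532731, plus strand), was at 4.11, 5.24, 5.17, 2.76 and 6.80 CPM in WT livers and at 24.8, 21.96, 17.0, 30.4 and 23.6 CPM in Het livers. In muscle it was at 48.8 to 150 CPM in WT and 36.3 to 79.2 CPM in Het animals. The livers separated, the muscles overlapped, and the interaction was 2.80 (SE 0.36, adjusted p = 0.000942). Col5a3, a chain of type V collagen, was muscle-higher in all 5 WT animals and liver-higher in all 5 heterozygotes. So were Gm13339, Mir99ahg and Adgrl1, which are a pseudogene, a noncoding host transcript of microRNAs and an adhesion receptor. Of the 31-base stretches of Gm13339, 28.3% also occur in the mitochondrial genome, so its reads may be shared with mitochondrial transcripts.

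On the lower side were Pdpr, Adgre1, Paip2b, Urb2, Zyg11b, Tmem167b and Rnf149, at -2.85 to -2.40. Among genes whose tissue order was reversed, Mob1a, an adaptor of the Hippo pathway (chr6:83302997-83320762, plus strand), was at 89.9, 70.8, 91.4, 99.8 and 51.8 CPM in WT livers and at 33.9, 18.6, 16.6, 12.8 and 10.5 CPM in Het livers. Its muscle level was 23.3 to 35.1 CPM in WT and 20.2 to 37.1 CPM in Het animals. The livers separated, with WT animal E lowest of the WT and Het animal F highest of the Het, and the muscles overlapped. The interaction was -2.23 (SE 0.28, adjusted p = 0.000941), and Mob1a was liver-higher in all 5 WT animals and muscle-higher in all 5 heterozygotes. Kif3b and Ncoa4 had the same pattern, with interactions of -2.17 and -2.11. Ncoa4 directs ferritin to autophagy and Kif3b is a kinesin motor. Pdpr, a regulatory subunit of pyruvate dehydrogenase phosphatase, fell by 2.85 (SE 0.57, adjusted p = 0.00477). Paip2b was called under 1 of the 5 scalings and in 2 of the 10 fits without 1 animal, with an adjusted p of 0.0419 on the scaling used here.

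For 21 of the 3295 called genes the muscle changed more than the liver, and Hba-a1, 1 of a pair of adult alpha-globin genes, was the only gene named by the rules among them. Its liver level was 159, 79.1, 316, 136 and 146 CPM in WT and 870, 228, 213, 783 and 164 CPM in Het animals. The muscles held 106, 53.8, 147, 48.7 and 450 CPM in WT and 54.3, 38.8, 33.6, 60.9 and 25.9 CPM in Het animals. Genotypes overlapped in each tissue taken alone and did not overlap in the within-animal difference, which was -1.63 to 1.49 in WT and 2.56 to 4.00 in Het animals. The interaction was 2.64 (SE 0.53, adjusted p = 0.00493), with 1.59 in liver and -1.91 in muscle. Hba-a2 gave 2.69 (SE 0.54, adjusted p = 0.00514), and 83.2% of the 31-base stretches of Hba-a1 also occur in Hba-a2, so the reads of the pair cannot be assigned with certainty. All 5 erythroid markers had positive values, of which 2 were called. Together they took 0.01998% to 0.0852% of reads in WT livers, 0.0435% to 0.203% in Het livers, 0.0110% to 0.104% in WT muscles and 0.00778% to 0.0155% in Het muscles. Blood left in the tissues was not measured. Of 19 immediate early genes 1 was called higher and 1 lower. Fos, the higher one and a transcription factor subunit, was at 3.17, 2.75, 2.09, 1.16 and 0.846 CPM in WT livers and 1.84, 3.35, 12.8, 5.98 and 3.02 CPM in Het livers. In muscle it was at 12.9, 9.56, 24.7, 13.2 and 17.5 CPM in WT and 3.89, 7.18, 4.47, 6.36 and 7.02 CPM in Het animals. The livers overlapped and the muscles did not, and the interaction was 2.62 (SE 0.66, adjusted p = 0.0149). Its muscle change of -1.43 was not called with edgeR and was called with DESeq2 (-1.42, SE 0.26, adjusted p = 0.00073).

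Some markers of other liver cells were called as well. In whole tissue, fewer cells of a type and less RNA per cell cannot be told apart. Of 7 tested Kupffer cell and macrophage markers 3 were called lower and 0 higher. Adgre1, which encodes F4/80, was at 27.9 ± 9.59 CPM in WT livers and 3.44 ± 1.86 CPM in Het livers, and at 5.46 ± 1.99 and 4.33 ± 1.83 CPM in the muscles (SD, n = 5). Its interaction was -2.71 (SE 0.44, adjusted p = 0.00208), and that of C1qa, a complement subunit, was -1.29 (SE 0.29, adjusted p = 0.00871). The summed macrophage markers took 0.0345% to 0.04995% of reads in WT livers and 0.0266% to 0.0432% in Het livers. Of 6 endothelial markers, Stab2 of the sinusoids rose by 0.90 (SE 0.22, adjusted p = 0.0126) and Cdh5, a junction protein of all endothelia, fell by 1.00 (SE 0.32, adjusted p = 0.0406, 1 of the 5 scalings and 2 of the 10 fits without 1 animal). Stab2 was the only 1 of the 6 with a positive value, and the median was -0.75, or -0.38 relative to all genes. Of 8 stellate cell and fibroblast markers, Reln fell by 1.56 (SE 0.36, adjusted p = 0.00936) and Dcn by 1.45 (SE 0.42, adjusted p = 0.0287, 3 of the 5 scalings and 3 of the 10 fits). These were the only calls. Of the 8 markers 4 had positive values, and the median was -0.05, or 0.31 relative to all genes. Of the 9 hepatocyte markers 0 had a called interaction, while in liver alone 2 were called higher and 2 lower. In muscle these markers together took at most 0.0227% of reads, so their interactions rest on low muscle values. Cyp2e1, a drug-metabolising enzyme, came closest to an interaction call at -1.25 (SE 0.44, adjusted p = 0.0623). Apoc3, an apolipoprotein, was at 1.22 (SE 1.01, adjusted p = 0.439). Of 4 adipocyte markers 1 was called lower, and 0 of the tested cholangiocyte, lymphocyte, neutrophil, Schwann cell and muscle fibre markers were called. The part of cell composition in the results above was not tested.

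Called genes also differed in sequence, type and expression level from the rest. The median GC content of the longest transcript was 54.0% for genes called higher, 49.5% for genes not called and 46.4% for genes called lower, and the median lengths were 4333, 3658 and 4841 bases. In the same order, the median expression (mean log2 CPM) was 4.79, 2.25 and 4.96 in liver and 4.23, 2.25 and 5.07 in muscle. The part of expression level in the differences of length and gene type was not tested. With GC content and length corrected by lowess in every library, 1311 genes were called higher and 1072 lower. The lower calls were then 13 in the IGF and insulin list, 11 in fatty acid oxidation and 6 in SREBP targets. They were 6 in the proteasome list, 3 in autophagy, 3 in heat shock, 2 in antioxidant and 4 in hypoxia genes. The splicing list had 26 higher calls and the mitochondrially encoded list 11. Besides Insr, Ghr, Jak2 and Tfeb, the calls of Igfbp5, Foxo1, Rpl5, Hlf, Hspb1, Psmd1, Prdx1, Cdh5, Dcn and Paip2b were lost with this correction. Akt1 and Rps6kb1, not called without it, were called with it. Of 1403 long noncoding RNA genes 3.49% were called higher and 2% lower, against 6.33% and 17% of 13450 protein-coding genes.

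In males with both tissues the same contrast gave no call with edgeR. It used 4 WT and 4 Het animals of the same age and strain. The fifth WT male was left out because muscle fibre markers took 14.2% of the reads of its liver library, against at most 0.000168% in the other 8 male livers. In the males the mitochondrial share of liver reads was 4.72% to 5.38% in WT and 4.65% to 6.14% in Het animals, with overlap. Of 15667 genes, 0 (0%) were called with edgeR, and 772 (4.93%) had an unadjusted p under 0.05. Without 1 of the Het males there was 1 call, Slc2a9 (3.67, SE 0.35, adjusted p = 0.0158), a urate and hexose transporter. With the fifth WT male there were 0 calls among 16191 genes and 481 (2.97%) at an unadjusted p under 0.05. The difference between the sexes was tested directly with both sets of animals, and 616 of 15813 genes (3.9%) were called, 327 higher and 289 lower in females. Of 3286 female calls that could be tested there, 584 (17.8%) were among these 616. With the fifth WT male in the fit 180 genes were called, 69 higher and 111 lower. For the female calls without a called difference, a smaller interaction in males was not shown. The males had 4 animals per genotype against 5 in the females. The median male interaction was 0.15 over the female higher calls and -0.12 over the female lower calls, against 0.01 over all genes.

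The genes whose interaction differed between the sexes were found in several of the lists above. In the splicing list 12 of 36 were called and in the mitochondrially encoded list 7 of 13, against 3.9% of all genes tested. In the IGF and insulin list 2 of 64 were called, a share near that of all genes. The largest such differences among named genes were for mt-Atp8 (3.61, SE 0.83, adjusted p = 0.0244) and Slc1a5 (3.29, SE 0.56, adjusted p = 0.00756). Clk2 differed by 1.65 (SE 0.31, adjusted p = 0.0114), with an interaction of 0.32 (SE 0.24) in males. Rps6kb2 differed by 1.28 (SE 0.32, adjusted p = 0.0336) and Deptor by -1.22 (SE 0.33, adjusted p = 0.0471), the 2 calls of the IGF and insulin list. Per2 differed by 1.37 (SE 0.37, adjusted p = 0.0440) and Canx by -1.46 (SE 0.32, adjusted p = 0.0203). Igf1r had an interaction of 0.60 (SE 0.34) in males, and its difference of 0.40 between the sexes was not called (SE 0.43, adjusted p = 0.668). For Irs1 the males gave -0.55 (SE 0.34) and the difference of -1.61 was not called (SE 0.55, adjusted p = 0.103). All 77 named genes called in females, which were chosen for their female values, had a smaller absolute interaction in males, and 55 of them had the same sign.

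**Figure D5:**
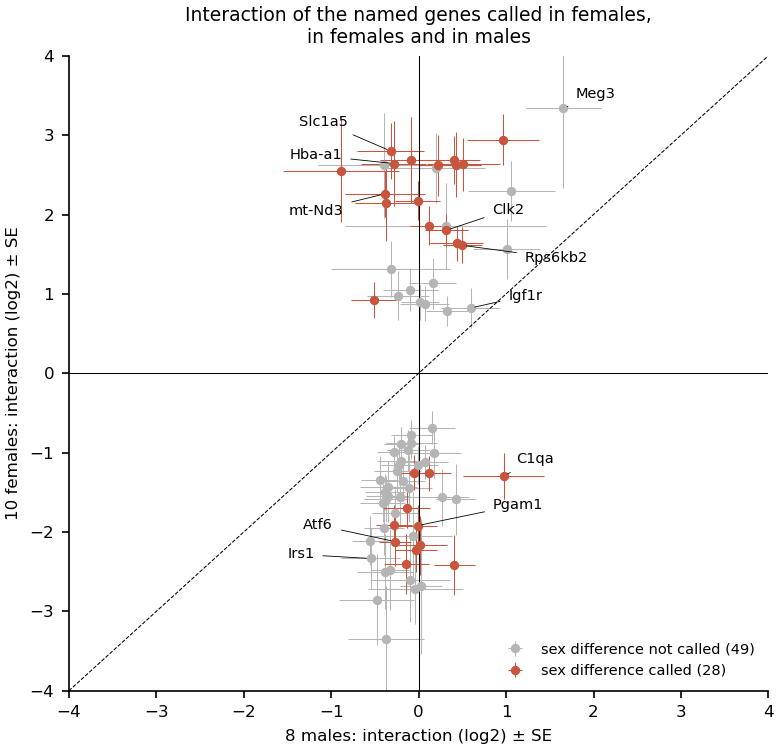
Each point is 1 of the 77 named genes called in females, placed by its interaction (log2, with SE bars) in 8 males on the horizontal axis and in 10 females on the vertical axis; the dashed line marks equal values. The 28 genes in red, with a called difference between the sexes, and the 49 in grey all lie nearer to 0 in males than in females.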

How the data were processed

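RNA-Seq of poly(A) RNA was analysed in 20 libraries of 10 female mice, each with liver and gastrocnemius muscle. The authors deposited 1 table of read counts per gene for the series, not normalized. Per the submitters' processing notes the tools were STAR 2.7.11b and featureCounts 2.0.6 with GRCm39. The handling of strand, read pairs and multiply mapped reads is not given in the sources used here. Of counts from 1 to 100, 79.0% were even. The table holds 57010 genes, of which 98.8% were named with GENCODE mouse release 39, and 0 columns belonged to no sample. Libraries held 26290519 to 56312866 counts.

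Genes were kept if 20% or more of the libraries in each tissue had 10 reads or more. Interactions were fitted to the counts with the quasi-likelihood test of edgeR 4.0.16 in R 4.3.3 (TMM scaling over the 20 libraries), with animal as a block, tissue, and tissue by genotype, and p-values were adjusted by the Benjamini-Hochberg method over all genes. A call is an adjusted p under 0.05. Genotype was also fitted in each tissue alone. CPM values use the TMM factors, and within-animal differences are log2 CPM with a prior count of 2. The block follows from the animal number in the library names, which was taken to mark a shared animal. The deviations of liver and muscle of an animal from their group means correlated at -0.0377 to 0.108 across genes. For animal A its own muscle correlated best with the liver (0.108, against at most 0.0582 for other WT muscles). For animal J another Het muscle did (0.0828, against -0.0377 for its own), so the correlations do not establish the pairing. Replicates are separate animals. One library number, 671, carries conflicting sex or genotype labels on its libraries and was not among the matched animals.

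The members, the gene lists and the rule for named genes were chosen with earlier results of these data known. The rule allowed every IGF and insulin gene. Of each other list it took up to 2 called members of largest interaction in each direction, or the 2 of lowest p where none was called. It added the 8 genes of largest interaction in each direction without overlap and with a mean of at least 2 log2 CPM in each tissue, and the 4 in each direction whose tissue order was reversed in all animals. Not all of these are named, and some are not reported here. F10 and Slc2a9 were named because so few genes were called in their comparisons. Alternatives were other scalings (also DESeq2 1.42.0 size factors), DESeq2, limma 3.58.1 and glmTreat tests, other filters, no block, a mitochondrial covariate, a GC and length correction (lowess span 0.3) and leaving out each animal. Rescaling of the Het livers was added after seeing the data. The fit was tested on simulated data with changes added equally in both directions. That test does not bear on the split of calls that depends on scaling.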

Additional observations from a re-analysis of the deposited data

Results flagged for a closer look

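In 188 groups of 5 animals examined, 21 held an animal far from the other 4, and chance flags about 1 in 20 groups. The groups were WT or Het values of a named gene, or the mitochondrial share, detected genes or total reads of a tissue and genotype. All values here are within-animal liver minus muscle differences in log2 CPM. Het animal F stood apart for Akt2 (-1.74), Etfdh (0.107), Per2 (1.32), Atf6 (0.359), Hspb1 (-2.63), Cyp2e1 (5.35) and Dcn (-0.795), and it also had the lowest mitochondrial share of the Het livers. WT animal E stood apart for Uqcrc2 (-1.29), Idi1 (1.36), Scd2 (-3.54), Fam193b (1.92), Mob1a (0.562) and Ncoa4 (0.535), and it had the lowest mitochondrial share of the WT livers. Het animal J stood apart for Pdha1 (-5.47), Lgals4 (6.49), Pdpr (-6.62) and Zyg11b (-6.04). Het animal K stood apart for Foxo3 (-0.0927) and Paip2b (-11.4), and WT animal B for C1qa (2.78) and Urb2 (-0.386).

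The interaction differed between the sexes for 616 genes by a test of the difference itself, as described above.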

How the results depend on the processing

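The count of 3295 interaction calls was 1036 when a change over 1.5-fold was tested and 0 with the animal block and the log2 mitochondrial share together, a covariate that the genotype largely fixes in liver. Dcn reversed to 0.0876 in the latter fit. Leaving out 1 animal gave 2054 to 3594 interaction calls, 3762 to 5533 liver calls, 0 muscle calls and 0 to 1 male calls. The 4854 liver calls became 303 with the mitochondrial covariate, the 0 muscle calls became 2 with DESeq2, and the 616 sex differences became 180 with the fifth WT male. For the pairing, leaving out the animal block gave 3882 interaction calls, 0 male calls and 941 sex differences. In the single tissues, a block by the replicate number of the sample titles gave 4167 liver and 0 muscle calls. That number joins different animals of the 2 genotypes, so these fits test no pairing. Of the 77 named calls, 63 held with the GC and length correction, 63 with the Het livers rescaled and 65 without WT animal B. The other alternatives gave total counts within 1.5 times those reported. The split of the interaction calls moved more, to 1603 higher and 2694 lower with the DESeq2 Wald test, 1525 and 1938 where all 20 libraries had to hold 10 reads, 920 and 1367 with no filter, and 1446 and 2148 without Het animal F. With 5 animals per genotype and a median standard error of 0.32 in liver and 0.21 in muscle over all genes, smaller changes could be missed. The causes of these differences were not tested.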
